A study of Mus musculus with 31 samples.

Results

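Ductal epithelial genes were followed as a set of 9 genes with long-standing use as markers of pancreatic ducts: Sox9, Onecut1, Krt7, Krt8, Krt18, Krt19, Cftr, Spp1 and Muc1. They were taken by gene symbol, whatever their values, and all 9 were found once each among the 38283 features of the deposited expression tables. The tables come from RNA-seq of pancreas from C57BL/6 mice at postnatal day 2, dissociated and sorted by flow cytometry into YFP+ cells, labelled mesenchymal, and YFP- cells, labelled non-mesenchymal. All animals carried Cre at Nkx3.2, a gene of foregut mesenchyme. H19DMD denotes a control region of the imprinted Igf2 and H19 locus. The Igf2 model set mutants with the genotype Igf2+/fl; Nkx3.2Cre/+ against Igf2+/+; Nkx3.2Cre/+ controls. The H19DMD model set H19DMDfl/+; Nkx3.2+/Cre mutants against H19DMD+/+; Nkx3.2+/Cre controls. Per the series' design text, the lesions remove Igf2 from, or overexpress it in, mesenchymal cells, so the non-mesenchymal cells are the neighbours of the targeted cells. The 6 groups with values are mesenchymal H19DMD controls (3 libraries) and mutants (4), non-mesenchymal H19DMD controls (3) and mutants (4), and non-mesenchymal Igf2 controls (4) and mutants (3); the mesenchymal libraries of the Igf2 model are not analysed here.

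The ducts of the pancreas carry the enzymes of the acini to the gut and add a fluid rich in bicarbonate. Their cells form a simple epithelium around a lumen. In the embryo the epithelial cords that become ducts express Sox9 and Onecut1, transcription factors that are needed for progenitor maintenance, endocrine progenitors and duct shape. The keratins of simple epithelia form filaments from pairs of one type II chain (Krt7 or Krt8) and one type I chain (Krt18 or Krt19). Krt8 and Krt18 are also made by acinar and endocrine cells, and Krt19 and Krt8 by the mesothelium that covers the organ. Cftr is the apical anion channel of duct cells, Muc1 an apical membrane mucin, and Spp1 (osteopontin) a secreted phosphoprotein made by duct cells and by some macrophages.

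The values are FPKM, that is, fragment numbers scaled to transcript length and to the size of the library, from 50-base single-end reads of amplified RNA. The absolute depth of each library is unknown, and 17476 to 20918 features were above 0. The labels were checked on the targeted locus: mesenchymal libraries held Igf2 at 3648 to 4024 FPKM in H19DMD controls and 6162 to 7923 FPKM in mutants, and H19 at 2437 to 2454 and 565 to 835 FPKM. For non-mesenchymal libraries the locus gives no such check of the genotype: Igf2 was at 45.2 to 53.2 FPKM in H19DMD controls and 45.4 to 157 FPKM in mutants, and at 71.5 to 144 and 25.0 to 147 FPKM in the Igf2 model. The summed level of 12 mesenchymal genes was 5551 to 7140 FPKM in mesenchymal libraries and 161 to 448 FPKM in non-mesenchymal libraries. The summed level of 14 acinar genes was 577 to 1811 FPKM and 30044 to 105907 FPKM in the same order. Endothelial genes, 8 in number, went against the sort: their sum was 74.6 to 133 FPKM in mesenchymal and 17.0 to 43.9 FPKM in non-mesenchymal H19DMD libraries. Their part in the fraction differences was not tested. The non-mesenchymal fraction held markers of acinar, endocrine, duct and blood cells. In such bulk samples fewer cells of a type and less RNA per cell cannot be told apart.

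In non-mesenchymal cells the 9 genes spanned a wide range of levels, and their order was similar in every group. In H19DMD controls the mean level ran from Spp1 (929.9 ± 207 FPKM, SD, n = 3) through Krt18 (138 ± 41.4), Muc1 (94.9 ± 32.9), Krt8 (82.1 ± 25.5), Sox9 (51.6 ± 12.6), Krt19 (43.7 ± 12.01), Onecut1 (25.4 ± 8.21) and Krt7 (9.26 ± 3.57) to Cftr (1.98 ± 1.04). Spp1 stood above the ranges of the other 8 genes in all 4 non-mesenchymal groups, and Krt7 and Cftr held the last places in that order without overlap with the genes above them. The neighbours from Krt18 down to Onecut1 overlapped in the H19DMD controls, yet within each of the 3 control libraries every gene lay above the next in that order. In Igf2 controls Krt19 (97.9 ± 21.3 FPKM, n = 4) preceded Muc1 (91.3 ± 39.6), with overlapping ranges and only 2 of 4 libraries in that order. The models were quantified in separate tables, so a level in one is not tested against the other.

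**Figure D1:**
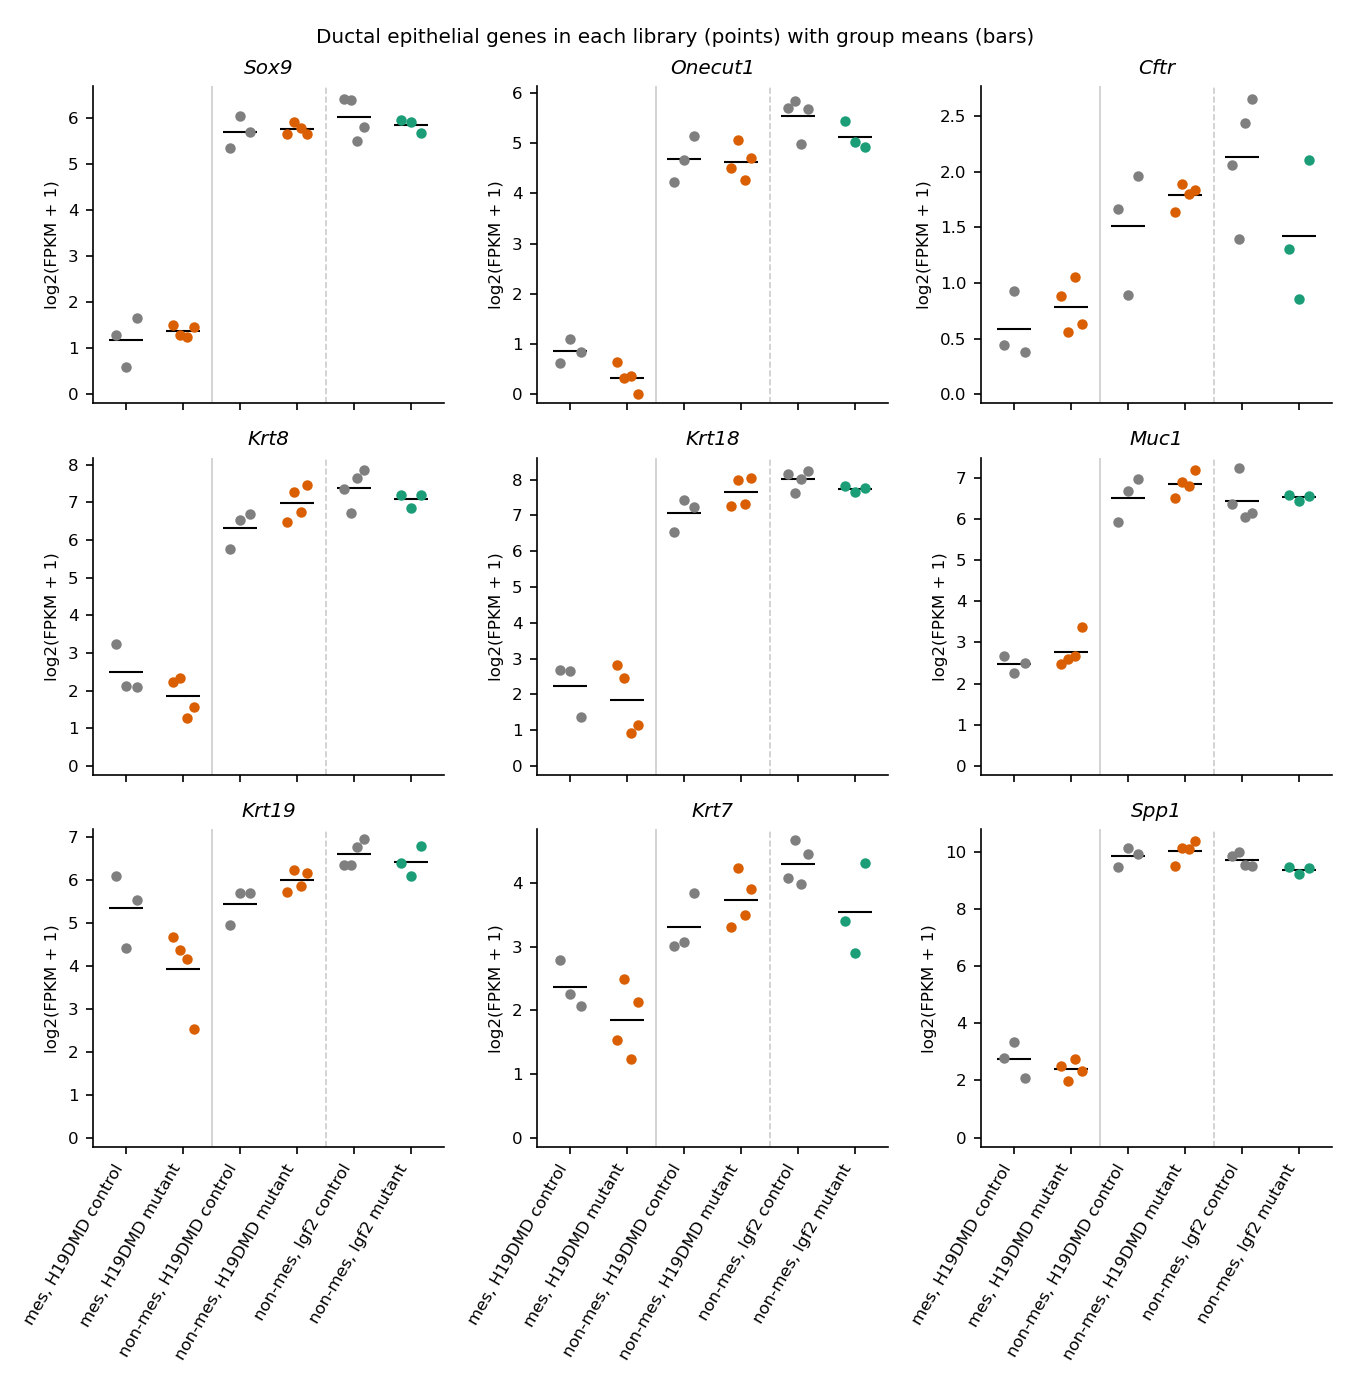
Level of each of the 9 ductal genes as log2(FPKM + 1) in every library (points) with group means (bars); mes and non-mes are mesenchymal and non-mesenchymal cells, the solid line parts the fractions and the dashed line the separately processed models. Krt19 in the mesenchymal controls lies within the range of 20.5 to 67.1 FPKM, around its non-mesenchymal levels, whereas Spp1 is at 3.26 to 9.15 FPKM there against 706 to 1114 FPKM.

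Mesenchymal and non-mesenchymal cells were first compared in the H19DMD model, where both fractions have values. A feature was tested where its mean over both fractions reached 1 FPKM. Onecut1 and Cftr had a mean under 1 FPKM in mesenchymal cells and entered only through the non-mesenchymal libraries, so no test of their difference is read. Of the other 7 genes, 5 were lower in mesenchymal controls (limma on log2(FPKM + 1), adjusted p under 0.05 over 16732 features), among all of which 10.3% were lower and 12.4% higher. The median difference of the 7 was -4.04 on the log2 scale, beside 0.08 for all features tested. Krt7 and Krt19 did not pass. In mutants 7 of 7 were lower, with a median of -4.38 beside -0.03 for all features, where 15.1% of features were lower and 13.5% higher. With 3 libraries against 3 an exact permutation test of a single gene cannot go below p = 0.1, and with 4 against 4 not below 0.0286.

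Of the transcription factors, Sox9 was at 1.43, 0.516 and 2.13 FPKM in mesenchymal controls and at 39.4, 64.5 and 50.8 FPKM in non-mesenchymal controls. Mesenchymal mutants gave 1.83, 1.42, 1.35 and 1.74 FPKM, and non-mesenchymal mutants 49.4, 59.4, 53.7 and 49.1 FPKM. The fractions did not overlap in either genotype, and the difference was -4.51 ± 0.34 (SE) in controls and -4.38 ± 0.15 in mutants, with limma adjusted p = 0.000466 and 1.09e-06. Onecut1, which encodes HNF6, was at 0.546, 1.14 and 0.782 FPKM in mesenchymal controls and 17.7, 24.4 and 34.1 FPKM in non-mesenchymal controls. In mesenchymal mutants it was at 0.556, 0.244 and 0.287 FPKM and listed at 0 in the fourth library, whereas the non-mesenchymal mutants held 21.6, 32.2, 18.4 and 25.0 FPKM. The fractions did not overlap, and the differences were -3.82 ± 0.29 and -4.30 ± 0.23. Their size depends on the pseudocount: with 0.1 in place of 1 they were -4.79 and -6.29, and with 5 they were -2.35 and -2.45. An overlapping lincRNA on the same strand, Gm20649, makes the Onecut1 value less certain, since the counting is not given in the sources used here.

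The keratins divided. Krt18 was at 5.38, 5.27 and 1.60 FPKM in mesenchymal controls against 92.4, 173 and 150.5 FPKM in non-mesenchymal controls. Its type II partner Krt8 was at 8.40, 3.39 and 3.24 FPKM against 53.2, 91.9 and 101 FPKM. Both were lower in mesenchymal cells by far more than the spread, at -4.84 ± 0.44 for Krt18 and -3.84 ± 0.41 for Krt8 (limma adjusted p = 0.000850 and 0.00155). In mutants Krt18 was at 6.08, 4.50, 0.882 and 1.22 FPKM in mesenchymal and 154, 254, 160.0 and 265 FPKM in non-mesenchymal libraries, a difference of -5.83 ± 0.46. Krt8 was at 3.66, 4.06, 1.41 and 1.93 FPKM against 87.2, 155, 106 and 176 FPKM, a difference of -5.14 ± 0.32. Reads from Gm36026, a lincRNA on the opposite strand, could add to Krt8.

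Krt19 departed from that pattern in controls. Its level was 67.1, 20.5 and 45.0 FPKM in mesenchymal controls and 29.8, 50.6 and 50.6 FPKM in non-mesenchymal controls, so that the fractions overlapped. The difference was -0.09 ± 0.47, with a 95% interval from -1.24 to 1.05 (limma adjusted p = 0.913), and it became 0.36 without mesenchymal control replicate 2. In mesenchymal controls Krt19 was the highest of the 9 genes in all 3 libraries. In mutants the mesenchymal libraries held 24.6, 19.8, 16.7 and 4.75 FPKM and the non-mesenchymal libraries 51.6, 73.7, 56.9 and 70.7 FPKM, without overlap. That difference of -2.06 ± 0.44 passed the test (limma adjusted p = 0.00923). Krt7 was at 5.92, 3.78 and 3.18 FPKM in mesenchymal and 7.02, 7.39 and 13.4 FPKM in non-mesenchymal controls. The ranges did not overlap, but the difference of -0.94 ± 0.33 missed the threshold (limma adjusted p = 0.0986). In mutants Krt7 was at 1.89, 4.62, 1.35 and 3.37 FPKM against 8.87, 17.9, 10.4 and 13.97 FPKM, a difference of -1.89 ± 0.33 that passed (limma adjusted p = 0.00340). Krt7 shares its locus with an antisense gene, Gm671.

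Among the genes of the lumen and its fluid, Spp1 had the widest gap between the fractions of the 9. It was at 5.94, 9.15 and 3.26 FPKM in mesenchymal controls and at 706, 1114 and 970.3 FPKM in non-mesenchymal controls. Mutants held 4.66, 2.96, 5.67 and 4.04 FPKM against 728, 1112, 1085 and 1313 FPKM. The differences were -7.09 ± 0.36 and -7.63 ± 0.23, with limma adjusted p = 0.000148 and 9.20e-07. Leukocyte genes, 9 in number, lay in the same direction. Their summed levels were 17.6 to 33.2 against 423 to 792 FPKM in controls and 30.6 to 69.5 against 451 to 761 FPKM in mutants. Their part in the Spp1 difference was not tested. A transcribed locus of unconfirmed type, Gm42793, also overlaps Spp1.

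Muc1 was at 5.36, 3.76 and 4.69 FPKM in mesenchymal and 59.3, 101 and 124 FPKM in non-mesenchymal controls. In mutants it was at 4.53, 5.01, 5.40 and 9.30 FPKM against 90.6, 118, 109.6 and 144 FPKM. Both gaps, -4.04 ± 0.31 and -4.07 ± 0.24, passed (limma adjusted p = 0.000492 and 9.68e-06). Cftr was low everywhere, at 0.362, 0.906 and 0.302 FPKM in mesenchymal and 2.18, 0.861 and 2.91 FPKM in non-mesenchymal controls, where the fractions overlapped. In mutants Cftr was at 0.843, 0.469, 1.08 and 0.546 FPKM against 2.12, 2.70, 2.49 and 2.58 FPKM. The fractions did not overlap there, and the differences were -0.92 ± 0.39 in controls and -1.01 ± 0.23 in mutants. The pseudocount sets the size for Cftr too: with 0.1 in place of 1 the mutant difference was -1.68. Cftr also overlaps an antisense gene, Gm15592, and a processed pseudogene on its own strand, Gm15595.

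**Figure D2:**
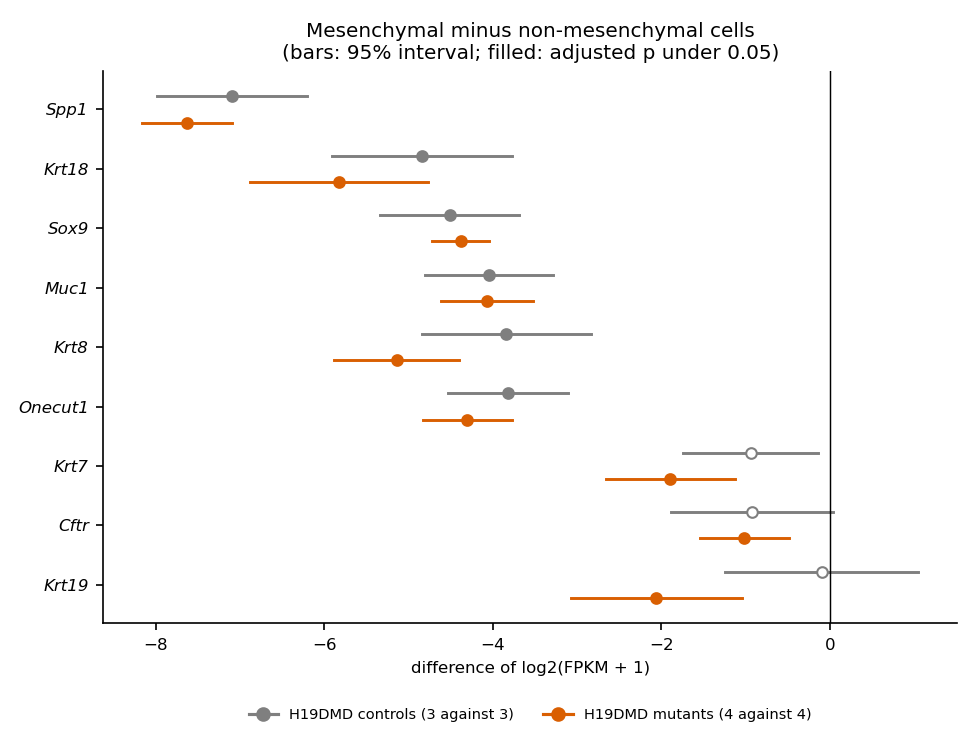
Mesenchymal minus non-mesenchymal difference of log2(FPKM + 1) for each gene in H19DMD controls (3 against 3 libraries) and mutants (4 against 4), with 95% intervals from limma; filled points have an adjusted p under 0.05, which is not read for Onecut1 and Cftr. Spp1 lies farthest to the left at -7.09 and -7.63, and Krt19 in controls sits at -0.09 with an interval across 0.

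Set against their non-mesenchymal level, the mesenchymal levels formed a low and a high group. In controls Spp1 (0.658%), Sox9 (2.64%), Krt18 (2.95%), Onecut1 (3.24%), Muc1 (4.85%) and Krt8 (6.10%) kept a few percent of the mean non-mesenchymal FPKM. Krt7 (46.4%) and Krt19 (101%) kept far more. Cftr was at 26.4%, but from means of 0.524 and 1.98 FPKM, near the lower end of the scale. Its share is therefore not read in either genotype. The summed acinar genes were at 1.38% and the summed endocrine genes at 0.583% in the same libraries. In mutants Krt19 was at 26.1%, Krt7 at 21.99% and Cftr at 29.7%, whereas the other 6 genes lay between 0.409% (Spp1) and 5.25% (Muc1). The partner ratio had other ranges in the fractions: Krt18 was 1.31 to 1.89 times Krt8 in the 14 non-mesenchymal libraries, but 0.493 to 1.66 times Krt8 in the 7 mesenchymal libraries.

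Mesothelial markers were set beside Krt19 in the mesenchymal fraction, and their relation did not pass after adjustment. The 7 markers (Msln, Upk3b, Upk1b, Lrrn4, Wt1, Gpm6a and Muc16) had summed levels of 102 to 332 FPKM in mesenchymal and 2.63 to 10.8 FPKM in non-mesenchymal libraries of the H19DMD model. Epcam, an adhesion protein of pancreatic epithelium, was at 0.185 to 1.06 FPKM in mesenchymal controls, where Krt19 was at 20.5 to 67.1 FPKM. Of the 12 epithelial surface genes tested, 5 others had a mean of at least 1 FPKM in each control fraction, Cd24a, Clu and Anxa4 among them. Over the 7 mesenchymal libraries, Krt19 and the mean log2 level of the 7 markers had a Pearson r of 0.868 (exact permutation p = 0.0157) and a Spearman rho of 0.821 (exact permutation p = 0.0341). This relation was examined after the values had been seen, for all 9 genes, and the adjusted p over the 9 was 0.0705 for r and 0.307 for rho. Without the 2 libraries farthest from the median marker level r was 0.450, so the Krt19 relation rests on those libraries, and r was 0.746 after centring on genotype. The permutations moved libraries between genotypes, so these p-values include any shift between mutants and controls. No p is given for the centred r. Krt8 had r = 0.936 (exact permutation p = 0.00853, adjusted 0.0705), 0.841 without the 2 libraries and 0.941 centred, with a rho of 0.679 (exact permutation p = 0.109). Krt18 gave r = 0.688 and Krt7 r = 0.666, and the other 5 genes r from -0.526 (Muc1) to 0.594 (Onecut1), none with an exact permutation p under 0.05. The part of mesothelial cells in the mesenchymal Krt19 level was not tested.

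**Figure D3:**
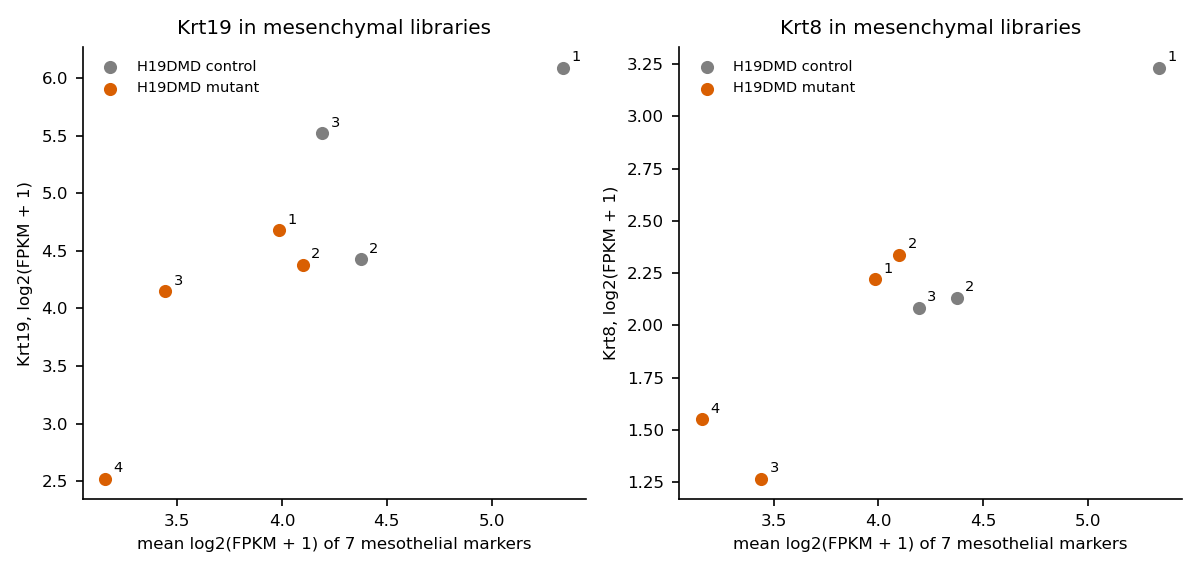
Krt19 (left) and Krt8 (right) as log2(FPKM + 1) against the mean log2(FPKM + 1) of 7 mesothelial markers in the 7 mesenchymal libraries of the H19DMD model, numbered by replicate. Control replicate 1 is highest and mutant replicates 3 and 4 are lowest on the marker axis, and the r over all 7 libraries is 0.868 for Krt19 and 0.936 for Krt8.

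Other genes of the duct programme were read beside the members from lists. Many of these genes entered the test only through the non-mesenchymal libraries, so the counts cover those with a mean of at least 1 FPKM in each fraction. In controls 3 of the 9 duct transcription factors tested had such means, and all 3 were lower in mesenchymal cells: Prox1 (-4.60), Glis3 (-2.01) and the Notch target Hes1 (-1.84). Of 12 epithelial surface genes 5 had such means, and 5 of 5 were lower, among them Cd24a (-4.63), Clu (-4.82) and Anxa4 (-2.34). Epcam, at -6.35, was one of the other 7. The ion and water transport genes, partners of Cftr in secretion, were mixed, with 9 of 10 counted, 2 lower, 0 higher and a median of 0.18. The sodium pump subunit Atp1b1 was at -2.90 and the carbonic anhydrase Car2 at -1.93, both called, while the bicarbonate carriers Slc4a4 (0.18) and Slc4a2 (0.43) did not pass. Among 8 cilium and tubule-calibre genes 6 were counted, 0 lower and 3 higher, among them the polycystin gene Pkd2 (1.17), while Bicc1 (-0.70) did not pass. The other 2, Dcdc2a (-5.99) and Pkhd1 (-4.18), were under 1 FPKM in mesenchymal controls. In mutants the lower genes were 3 of 3, 4 of 4, 2 of 9 with 1 higher, and 1 of 6 with 3 higher, in the same order of lists. Beside these counts, 10.3% of everything tested was called lower and 12.4% higher in controls, and 15.1% and 13.5% in mutants. Those shares include genes that entered through one fraction only. No share was computed under the stricter rule used for the lists, so the smaller counts are not read as departures from it.

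Of 10 other keratins 4 were tested in controls, each through one fraction only, and no test of them is read. Krt20 was at 0.171 to 0.969 FPKM in mesenchymal and 6.09 to 17.97 FPKM in non-mesenchymal controls. Krt23 was at 0 to 0.975 FPKM and 12.3 to 15.5 FPKM, and Krt80 at 0 to 0.245 FPKM and 1.17 to 2.62 FPKM, in the same order. Krt14, a keratin of basal epithelial cells singled out here after its values were seen, lay the other way, at 2.30 to 4.79 FPKM in mesenchymal controls and listed at 0 in all 3 non-mesenchymal controls. Krt17 was under the filter, at 0.282 to 0.693 FPKM in mesenchymal and 0.438 to 2.37 FPKM in non-mesenchymal controls.

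The next comparison asked whether ductal genes of non-mesenchymal cells differed when the neighbouring mesenchyme carried the H19DMD deletion. None of the 9 passed (limma, 0 of 9 also at an unadjusted p under 0.05, and 0 of 9 by the exact permutation test, whose smallest p for 4 against 3 is 0.0286). Of 16239 features 0.0677% passed, and 5.35% had an unadjusted p under 0.05. The median difference of the 9 was 0.33, beside 0.05 for all features, and 8 of 9 differences were above 0. The keratins had the largest of the 9. Krt8 was at 53.2, 91.9 and 101 FPKM in controls and 87.2, 155, 106 and 176 FPKM in mutants, a difference of 0.66 ± 0.33 (95% interval -0.11 to 1.43, limma adjusted p = 0.894). Krt18 gave 0.59 ± 0.30 and Krt7 0.43 ± 0.31, and Krt7 ran from 0.27 to 0.70 with each library left out in turn. Krt19 was at 29.8, 50.6 and 50.6 FPKM in controls and 51.6, 73.7, 56.9 and 70.7 FPKM in mutants, and was the only one of the 9 without overlap. Groups did not overlap for 5.68% of all features, so 1 of 9 is read against that share. Its difference was 0.55 ± 0.24 (95% interval -0.02 to 1.12, limma adjusted p = 0.894, exact permutation p = 0.0571). Control replicate 1 was the lowest of the 3 control libraries for Krt8, Krt18, Krt19, Sox9, Onecut1, Krt7, Spp1 and Muc1. Without that library the differences were 0.38 for Krt8, 0.32 for Krt18, 0.30 for Krt19, 0.02 for Muc1 and -0.12 for Sox9. Sox9 (0.06 ± 0.19), Onecut1 (-0.04 ± 0.27), Spp1 (0.18 ± 0.26), Muc1 (0.33 ± 0.28) and Cftr (0.28 ± 0.31) lay within the spread. The 6 erythroid genes had a median difference of 1.71 with 0 called and summed levels of 123 to 437 FPKM in controls and 152 to 1706 FPKM in mutants, and 11 of 12 acinar genes were below 0 (median -0.22), 0 called. Endocrine genes were below 0 for 8 of 12 (median -0.27, 0 called), with sums of 19999.5 to 30068 FPKM in controls and 11339 to 20594 FPKM in mutants. Groups did not overlap for 2 of these 12, the hormone genes Ins1 (-0.91) and Gcg (-0.96), both with a limma adjusted p = 0.892. Ins2 (-0.86) and Iapp (-0.36) were also below 0, and the hormone genes Sst and Ppy were at 0.06 and -0.21. Mesenchymal genes were above 0 for 6 of 7 (median 0.22, 0 called), with sums of 168 to 205 FPKM in controls and 161 to 283 FPKM in mutants. The part of these cell types in the ductal differences was not tested.

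In the Igf2 model, the non-mesenchymal cells beside Igf2-deleted mesenchyme were compared in the same way. Again 0 of 9 passed (limma, 0 of 9 at an unadjusted p under 0.05, and 0 of 9 by the exact permutation test), where 0.0631% of 17441 features passed and 5.28% had an unadjusted p under 0.05. Here 8 of 9 differences were below 0, with a median of -0.31 beside -0.03 for all features. Spp1 was at 925, 1025, 734 and 719 FPKM in controls and at 703, 589.7 and 693 FPKM in mutants, the one member whose groups did not overlap, against 6.02% of all features. Its difference was -0.35 ± 0.18 (95% interval -0.78 to 0.08, limma adjusted p = 0.919, exact permutation p = 0.114). The leukocyte genes in these mutants had a median difference of 0.47, 9 of 9 above 0 and 0 called. The erythroid genes were below 0 for 6 of 6 (median -0.57, 0 called), with summed levels of 724 to 4042 FPKM in controls and 594 to 1757 FPKM in mutants, and the mesenchymal genes for 7 of 8 (median -0.13, 0 called). The part of these cell types in the ductal differences was not tested. Krt7 was at 15.9, 24.5, 14.9 and 21.0 FPKM in controls and 9.58, 6.47 and 19.02 FPKM in mutants, so that 2 of 3 mutants lay below all controls, with a difference of -0.76 ± 0.36. Cftr was at 3.16, 1.63, 4.44 and 5.32 FPKM in controls and 1.47, 0.811 and 3.32 FPKM in mutants, a difference of -0.71 ± 0.44. Both values turned on single mutants: without mutant replicate 2 they were -0.44 for Krt7 and -0.43 for Cftr, and without mutant replicate 3 they were -1.15 and -1.06. Onecut1 was at 50.6, 56.4, 30.6 and 50.1 FPKM against 42.5, 31.6 and 29.3 FPKM, a difference of -0.42 ± 0.25.

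The other members of the Igf2 model had differences closer to 0. Sox9 was at 83.4, 82.5, 44.1 and 54.4 FPKM in Igf2 controls and 61.3, 59.3 and 49.6 FPKM in mutants (-0.17 ± 0.26). Krt18 was at 286, 196, 259.6 and 303 FPKM against 225, 201 and 218 FPKM (-0.26 ± 0.18). Krt8 was at 161, 104, 198 and 229.9 FPKM against 146, 113 and 145 FPKM (-0.31 ± 0.28). In all of these the mutants lay inside the control range, which was the wider of the groups. Krt19 was at 80.0, 80.4, 108 and 123 FPKM against 82.8, 66.7 and 109 FPKM (-0.18 ± 0.24). Muc1 was at 80.6, 149.9, 65.3 and 69.3 FPKM against 95.4, 86.1 and 93.6 FPKM (0.09 ± 0.29), and was the one member above 0. With each library left out in turn Sox9 ran from -0.35 to -0.045 and Krt18 from -0.40 to -0.19. Krt8 then ran from -0.53 to -0.15 and Krt19 from -0.37 to -0.014. The acinar markers in the same mutants had a median difference of 1.08, 12 of 13 above 0 and 0 called, with summed levels of 30044 to 43428 FPKM in controls and 88534 to 100690 FPKM in mutants. FPKM are shares of a library, and the part of the acinar transcripts in the ductal values was not tested.

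**Figure D4:**
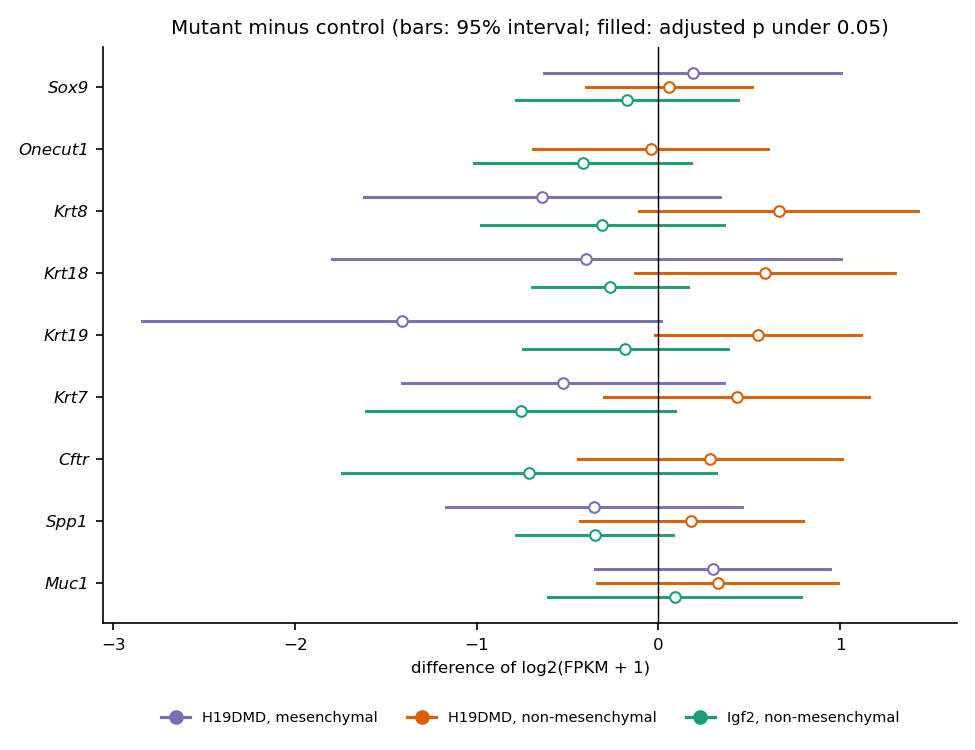
Mutant minus control difference of log2(FPKM + 1) for each ductal gene with 95% intervals from limma, in mesenchymal and non-mesenchymal cells of the H19DMD model and in non-mesenchymal cells of the Igf2 model; no point is filled, since none has an adjusted p under 0.05. Krt8, Krt18, Krt19 and Krt7 lie above 0 in the H19DMD and below 0 in the Igf2 non-mesenchymal cells.

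Mesenchymal cells of H19DMD mutants and controls were compared last, and 7 of the 9 genes could be tested, as Onecut1 and Cftr were under the filter. None passed (limma, 0 of 7 at an unadjusted p under 0.05, and 0 of 9 by the exact permutation test), where 0.0694% of 15856 features passed and 4.76% had an unadjusted p under 0.05. Groups did not overlap for 5.39% of features and for none of the 9. Krt19 had the largest difference of the 7, -1.41 ± 0.60 (95% interval -2.84 to 0.02, limma adjusted p = 0.927, exact permutation p = 0.114), and 3 of 4 mutants lay below all controls. It was -0.94 without mutant replicate 4, the library with 4.75 FPKM. Krt8 (-0.64 ± 0.42), Krt7 (-0.52 ± 0.38), Krt18 (-0.40 ± 0.59) and Spp1 (-0.35 ± 0.34) were also below 0, and Sox9 (0.19 ± 0.35) and Muc1 (0.30 ± 0.27) above it. Leaving out each library in turn gave -0.84 to -0.26 for Krt8, -0.74 to -0.31 for Krt7, -0.82 to -0.09 for Krt18 and -0.68 to -0.05 for Spp1. For Muc1 it gave 0.10 to 0.40. The values nearest 0 came without control replicate 1 for Krt8 and Krt7, without mutant replicate 3 for Krt18 and without control replicate 2 for Spp1. The mesothelial markers were below 0 for 6 of 7 genes, with a median of -1.08, 0 called and summed levels of 147 to 332 FPKM in controls and 102 to 156 FPKM in mutants. Wt1 was the exception, at a mean of 57.1 FPKM in controls and 58.5 FPKM in mutants.

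The lists of duct genes had 0 called in every genotype comparison (limma). In H19DMD non-mesenchymal cells 12 of 12 epithelial surface genes had a difference above 0 (median 0.41), as had 7 of 9 duct transcription factors (0.25). So had 9 of 11 transport genes (0.31), 7 of 8 cilium genes (0.19) and 3 of 4 other keratins (0.24). The median was 0.33 for the members and 0.05 for all features. The lists are not given without control replicate 1, the lowest control for most members, nor is the share of all features above 0. In the Igf2 model 8 of 8 cilium genes (median -0.28) and 10 of 12 surface genes (-0.26) were below 0. So were 6 of 9 transcription factors (-0.18) and 3 of 4 other keratins (-0.38). The median there was -0.31 for the members and -0.03 for all features. Transport genes there were split, with 6 of 11 below 0 and a median of -0.20. In H19DMD mesenchymal cells 5 of 5 surface genes were below 0 (median -0.80), as were 5 of 9 transport genes (-0.30) and 4 of 6 cilium genes (-0.11). Of 3 transcription factors 2 were above 0 (median 0.004), and the 1 other keratin tested was at -1.16, beside -0.07 for all features. Genes of a list share their libraries, so their signs are not separate observations.

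Whether the gap between the fractions differed with genotype was tested as an interaction. It passed for 0 of 9 genes (limma), and for 0.0117% of 17105 features, while 2 of 9 had an unadjusted p under 0.05, as had 6.35% of all features. Those were Krt19 at -1.96 ± 0.69 and Krt8 at -1.30 ± 0.54, both with a limma adjusted p = 0.755. The call of Krt19 in mutants and not in controls is thus not shown to be a difference between the genotypes.

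Variation within groups tied some members together. Over the 14 non-mesenchymal libraries, with log2(FPKM + 1) centred on the group mean, 36 pairs of members were computed, and 30 had a Pearson r above 0 (median 0.42). Of these 3 passed with permutation of libraries within groups and adjustment over the 36. With median-ratio scaling only Krt8 with Krt19 passed (adjusted permutation p = 0.0385, and 0.0580 for the other 2), and within either model's 7 libraries 0 pairs passed. So few libraries allow few permutations within groups, which limits how low an adjusted p can go. For the 3 pairs the lowest adjusted permutation p was 0.114 in the H19DMD and 0.25 in the Igf2 libraries. The counts within a model therefore cannot decide. Krt8 with Krt18 had r = 0.915 (permutation p = 0.00226, adjusted 0.0271) and rho = 0.886 (permutation p = 0.00444, adjusted 0.0533). Krt8 with Krt19 had r = 0.864 (permutation p = 0.00076, adjusted 0.0270) and rho = 0.728 (permutation p = 0.00372, adjusted 0.0533). Spp1 with Muc1 had r = 0.807 (permutation p = 0.0015, adjusted 0.0270) and rho = 0.807 (permutation p = 0.0017, adjusted 0.0533). Without the 2 libraries farthest from the median of the first gene these were 0.869, 0.831 and 0.764. Within the H19DMD and the Igf2 libraries apart, r was 0.959 and 0.899 for Krt8 with Krt18, 0.948 and 0.769 for Krt8 with Krt19, and 0.833 and 0.841 for Spp1 with Muc1. Members of a pair were measured in the same libraries, and the part of depth and cell mixture in these values was not tested.

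Other pairs took opposite signs in the models. Krt8 with Muc1 had r = 0.925 over the 7 H19DMD libraries and -0.859 over the 7 Igf2 libraries, and 0.084 over all 14. Krt19 with Sox9 had 0.766 and -0.767 in the same order. Among Igf2 controls replicate 2 held the lowest Krt8 (104 FPKM) and the highest Muc1 (149.9 FPKM). In the Igf2 mutants these genes had the same order, with Krt8 at 146, 113 and 145 FPKM and Muc1 at 95.4, 86.1 and 93.6 FPKM. The r within a model is not given with a library left out. Cftr with Sox9 was the pair with the lowest r, -0.666 over 14 libraries (permutation p = 0.0474, adjusted 0.190), and was below 0 in both models. In the Igf2 libraries Cftr ran instead with Krt19 (r = 0.926), where in the H19DMD libraries it had r = -0.080. The difference between the models was not tested.

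**Figure D5:**
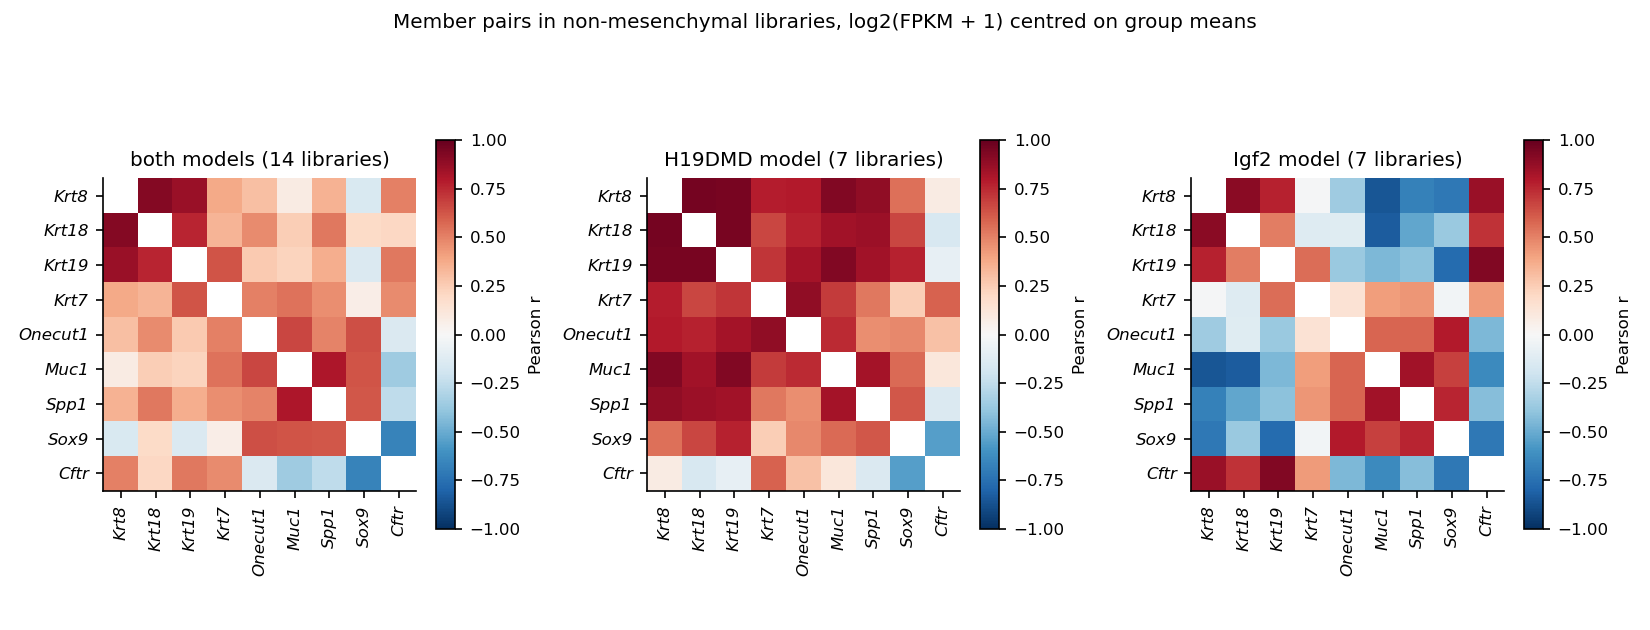
Pearson r for each pair of the 9 genes in non-mesenchymal libraries, from log2(FPKM + 1) centred on group means, over both models (left) and in each model (middle and right). The block of Krt8, Krt18 and Krt19 is above 0 in all panels, while Muc1 with Krt8 is at 0.925 in the H19DMD panel and -0.859 in the Igf2 panel.

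The sequences ahead of the genes are shown for 2 of the 3 pairs that passed, Krt8 with Krt18, neighbours on a chromosome, and Spp1 with Muc1, on separate ones. Neither of these pairs passed with median-ratio scaling. Krt8 and Krt18 lie 23698 bases apart on chromosome 15, on opposite strands with 0 annotated genes between them (GENCODE, GRCm38). The windows are the RefSeq bases before each start (GRCm38.p6), ended where the GENCODE gene begins, and are given 5′ to 3′ on the gene's strand. Capitals mark matches on either strand, and no match overlaps another in the printed windows. The strings searched were the GC box, GGGCGG, the TATA box, spelled TATAAA, and the CCAAT box by its name. The core that ONECUT factors prefer was searched as ATCAAT. They are, in order, chr15:102004483-102004592 (minus strand), chr15:102027966-102028179 (plus), chr5:104434861-104435110 (plus, the first of 2 Spp1 windows) and chr3:89228806-89229055 (plus).
Krt8: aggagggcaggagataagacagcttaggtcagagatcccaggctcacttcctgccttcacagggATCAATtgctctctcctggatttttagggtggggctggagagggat
Krt18: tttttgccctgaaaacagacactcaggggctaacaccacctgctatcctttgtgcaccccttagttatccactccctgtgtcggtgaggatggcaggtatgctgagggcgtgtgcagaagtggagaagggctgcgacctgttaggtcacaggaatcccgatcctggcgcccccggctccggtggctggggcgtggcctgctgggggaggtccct
Spp1: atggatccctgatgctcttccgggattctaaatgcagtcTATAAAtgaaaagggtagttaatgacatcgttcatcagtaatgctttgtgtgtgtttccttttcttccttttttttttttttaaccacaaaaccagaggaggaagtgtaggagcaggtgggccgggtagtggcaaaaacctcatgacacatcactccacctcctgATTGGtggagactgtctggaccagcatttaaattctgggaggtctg
Muc1: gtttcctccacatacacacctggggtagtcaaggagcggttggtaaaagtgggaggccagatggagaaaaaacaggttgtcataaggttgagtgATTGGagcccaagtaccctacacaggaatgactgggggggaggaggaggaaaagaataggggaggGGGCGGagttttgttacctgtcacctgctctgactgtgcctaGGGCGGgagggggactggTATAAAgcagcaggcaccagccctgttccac

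Among 32851 RefSeq windows of 250 bases, the GC box was found in 32.7%, the TATA box in 12.4%, the CCAAT box in 33.8% and the ONECUT core in 6.72%. The first base of each match is given here by its distance before the RefSeq start. Muc1 held the CCAAT box at 156 bases, the GC box at 91 and 49 bases and the TATA box at 31 bases, and Krt8 the ONECUT core at 186 bases. Spp1 held the TATA box at 211 and the CCAAT box at 46 bases, and the Krt18 window none of them. The SOX core, ACAAT (27.7% of windows), and the AP-1 string, spelled TGANTCA (6.75%), were in no window of the 7 members that had one. A match is a string of letters and not evidence of binding.

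Features whose within-group variation was most like that of each member are given as a description, over the same 14 libraries and 7887 features, with no test. For Krt8 they were Mafk (r = 0.959), Myl12a (0.937) and Rhob (0.936), and for Krt18 Cyr61 (0.962), Mafk (0.926) and Eri3 (0.923). Mafk thus stood in both lists of the partner keratins. Krt19 had Txnip (0.923), Rhob (0.915) and Las1l (0.912), and Krt7 had Lamb1 (0.922) and Pkp4 (0.918). For Muc1 they were Prss8 (0.966), Isyna1 (0.952) and Arf1 (0.941), and for Spp1 Coq9 (0.949), Dctn5 (0.924) and St5 (0.922). Of the transcription factors, Sox9 had Ep300 (0.897), Fdft1 (0.897) and Mapk3 (0.883), and Onecut1 had Grina (0.942), Glb1l (0.938) and Emid1 (0.911). Cftr was too low to enter.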

How the data were processed

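RNA-seq of sorted pancreatic cells was deposited by the authors as gene-level FPKM, in one table per model; per the submitters' processing notes, TopHat2 2.0.8, Cufflinks 2.2.1 and GRCm38 were used, with strand use not given in the sources used here. Of 31 labelled samples, 21 had values; 10 are not analysed here. Values were fitted as log2(FPKM + 1) with limma 3.58.1 (R 4.3.3; empirical Bayes with trend) over features whose mean reached 1 FPKM in the libraries compared, with Benjamini-Hochberg adjustment over all of them and a threshold of 0.05. Features were not compared across tables. The fit was tested on simulated data with 200 changed features. Relations used 100000 permutations within groups. The 9 genes, the lists and the tests were chosen with earlier results of these data known. Named genes were the 9 members, the 4 genes of each list with the highest mean in non-mesenchymal H19DMD controls, and the 3 most like features per member; a few of these are not reported here, and other genes are named where a count or an exception turns on them, chosen after their values were seen. The labels do not say that replicates are separate animals, so p-values measure the spread between samples, which may be technical. Depth is unknown, so no counting interval is given. Alternatives were other pseudocounts, filters, scaling, fits over all groups, the replicate block and leaving out each library.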

Additional observations from a re-analysis of the deposited data

Results flagged for a closer look

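Differences between mutants and controls in non-mesenchymal cells took opposite signs in the models for 7 of the 9 ductal genes, and for 3 of them every H19DMD mutant lay above and every Igf2 mutant below the mean of its own controls. The H19DMD difference minus the Igf2 difference, on the log2(FPKM + 1) scale, was 0.97 for Krt8, 0.85 for Krt18 and 1.00 for Cftr. For Krt8 and Krt18 this no longer held without H19DMD control replicate 1, and for Cftr without H19DMD control replicate 2 or without Igf2 control replicate 3 or 4. The difference was not tested, and the model and its separately processed table cannot be told apart. The share of all features that meet the same rules is not given. The members also varied together, with r above 0 in 30 of 36 pairs, so the counts are not of separate observations. No library stood apart within its group among the 27 sets of 4 libraries examined. Groups of 3 libraries, among them the H19DMD controls, were not examined in this way.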

How the results depend on the processing

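The count of members called, Onecut1 and Cftr included, was 6 to 7 in H19DMD controls and 8 to 9 in mutants between the fractions, and 0 in every genotype comparison and in the interaction, under all alternatives run. The number of member pairs past the threshold was 3, and 1 with median-ratio scaling, 0 in the H19DMD libraries alone and 0 in the Igf2 libraries alone, where 7 libraries enter; the cause was not tested for the scaling. Values that changed sign were all uncalled. Under median-ratio scaling Sox9 in H19DMD non-mesenchymal cells was -0.0045 and the Muc1 interaction 0.0905, with pseudocount 0.1 the interactions of Cftr and Muc1 were 0.0324 and 0.0156, and with the replicate block Muc1 in the Igf2 model was -0.0133; the cause was not tested. Leaving out each library gave ranges of -0.47 to 0.36 for Krt19 between fractions in controls and -0.10 to 0.42 for Sox9 in H19DMD mesenchymal cells. In H19DMD non-mesenchymal cells they were -0.12 to 0.23 for Sox9, -0.27 to 0.19 for Onecut1, -0.0245 to 0.51 for Cftr and -0.0043 to 0.35 for Spp1. For Muc1 in the Igf2 model the range was -0.0413 to 0.35, and in the interaction -0.16 to 0.36 for Sox9, -0.32 to 0.22 for Cftr and -0.25 to 0.28 for Muc1. Replicate numbers gave no strong pairing of libraries: deviations of same-numbered libraries correlated at -0.0465 to 0.0675 across features. Between the fractions these values were all above 0, from 0.0055 to 0.0675. There all but control replicate 3 and mutant replicate 4 correlated best with their own number. The replicate block gave 6 and 8 members called between fractions, without Cftr in mutants (adjusted p = 0.0540), and changed no other call. Depth is unknown, and Cftr and Onecut1 in mesenchymal cells lie near the lower end of the scale.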
